A study of Glycine max with 12 samples.

Results

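Glutamine synthetase was read by 5 probesets of a soybean oligonucleotide array, out of 42748 probes that are not controls. They were taken by their probe names. The 4 plastid probesets are GMFL01-06-M21-R_347, GMFL01-14-D20-F_759, GMFL01-36-I09-R_352 and GMFL01-17-B06-F_54, called M21, D20, I09 and B06 here, and the supplementary list of the study describes each of them as the nuclear-encoded precursor of the chloroplast enzyme. The fifth, GMFL01-16-C01-R_584, is described as the cytosolic form GSbeta1. These descriptions come from a list of probesets that nitrate had raised more than 2-fold on the root arrays analysed here, so the direction of the root response was part of how the probesets became known. The nodule arrays had no part in that list.

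The plants were Glycine max cv. Nourin No. 2, all inoculated with Bradyrhizobium diazoefficiens USDA110 and grown in nitrogen-free solution. At 19 days after planting they received 5 mM nitrate or none for 24 h. There were 4 groups of 3 arrays: nitrate-treated roots, control roots, nitrate-treated nodules and control nodules. Each array carried RNA pooled from 3 plants. Roots and nodules of a treatment came from the same plants. Roots were cut from the lower root system, which bore no visible nodules, and the nodules, above 3 mm in diameter, from the upper one. RNA came from tissue, not from separated cells, so a higher signal cannot be split into more cells of a type and more RNA per cell.

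Glutamine synthetase joins ammonium to glutamate with the use of ATP and is the entry point of inorganic nitrogen into amino acids. In legumes, cytosolic forms take up the ammonium that bacteroids release in the nodule, and plastid forms work beside nitrite reductase, which makes ammonium in the same compartment. The glutamine is then used by glutamate synthase and by asparagine synthetase, and asparagine is a main nitrogen carrier in the xylem sap of soybean roots. The reference gene table of soybean holds 6 genes found under names of glutamine synthetase, and copies under other names would be missed. None of the probe accessions could be matched to it, so it was not determined which gene copies each probeset reads, and copies of nearly the same sequence cannot be told apart.

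All values are processed signals scaled to an array mean of 2500. The scaling factors lay between 0.544 and 0.922, and the scanner software read 79.2% to 84.5% of the probes as well above background. The arrays lay on 3 slides of 4. All nitrate-treated root arrays shared a slide with control root array 1, and nitrate-treated nodule array 3 shared one with all control nodule arrays. The organ labels were checked with 2 nodule markers, of which 1 was higher in nodules and 1 was not. Nodulin-21 was lower in roots, with means of 4937 against 61577 in nodules under nitrate, and of 13887 against 35296 in nodules without it. Early nodulin 40 was instead higher in roots, with means of 8516 against 4102 in nodules under nitrate, and of 1891 against 471 in nodules without it. Both markers were well above background on every root array, and their summed signal was 8035 to 17590 in nitrate-treated roots, 14896 to 16271 in control roots, 58328 to 78395 in nitrate-treated nodules and 34188 to 36938 in control nodules. Their part in the results below was not tested.

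In roots, nitrate took the 3 brighter plastid probesets up to signals 17.8 to 25 times those of control roots, and GSbeta1 to 2.39 times. The dim plastid probeset B06 rose too, by an amount that depended on the background correction (log2 change 2.85, or 1.34 with normexp). In nodules the same treatment left M21 and D20 at 0.955 and 1.06 times their control level, and the one probeset past the test was I09, at 1.43 times. Without nitrate the 3 brighter plastid probesets were 8.44 to 25.2 times lower in roots than in nodules. With nitrate, the intervals of the organ difference included 0 for M21 and D20, and I09 and B06 were called higher in roots, but no slide held both nitrate groups and neither call remained with the slide as a fixed block.

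**Figure D1:**
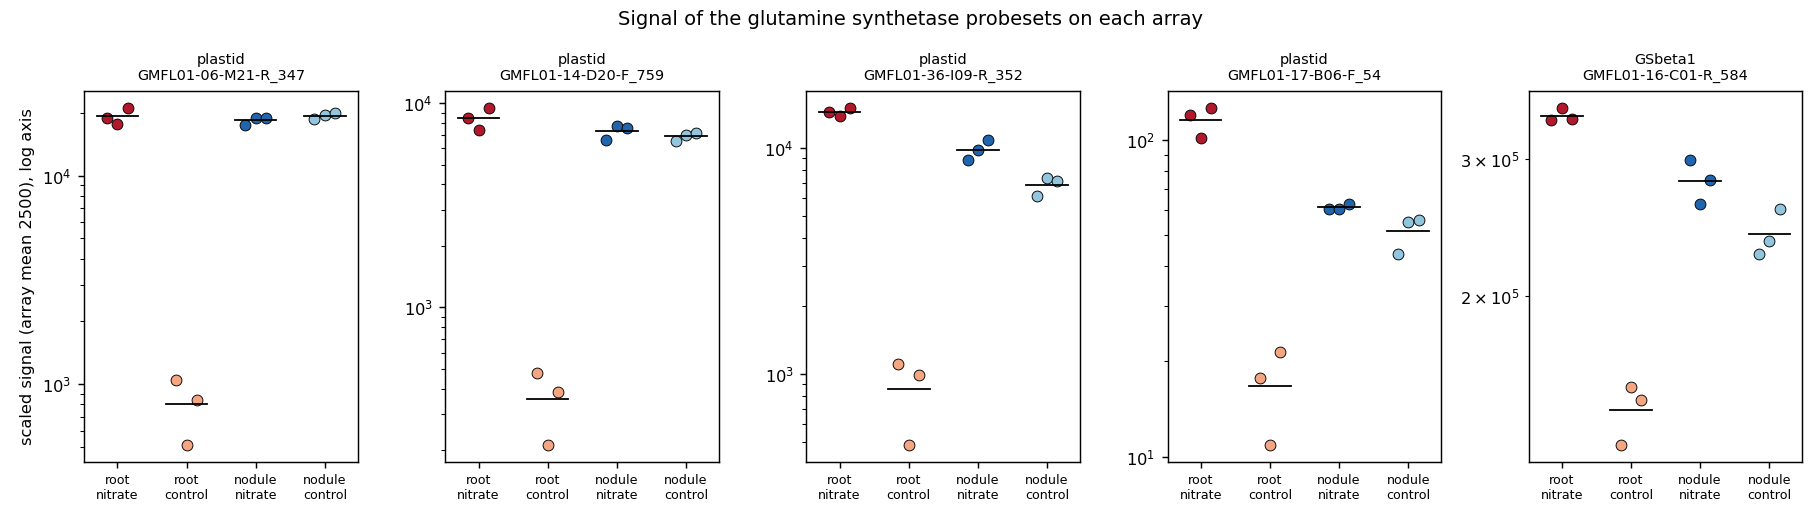
Scaled signal (log axis, array mean 2500, each panel with its own range) of the 5 probesets on each of the 12 arrays, with 1 point per array, the 3 arrays of a group side by side in order of their number, and a line at the group mean. Control roots lie below every other group in all 5 panels, and the second control root array is the lowest point for the 4 plastid probesets but the highest of its group for GSbeta1.

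Plastid probeset M21 read 18800, 17747 and 21153 on the 3 nitrate-treated root arrays, against 1052, 512 and 839 on the 3 control root arrays. The groups were far apart, and the spread within control roots (CV 33.9%) was wider than within nitrate-treated roots (CV 9.07%). The log2 change was 4.64 ± 0.29 (SE, n = 3 each, adjusted p = 0.000783, limma), a 25.0-fold rise with a 95% confidence interval of 15.5 to 40.3. Among 33957 probes tested in roots, 23 had a larger log2 change. D20 read 8486, 7378 and 9494 in nitrate-treated roots, against 476, 212 and 384 in control roots. Its log2 change was 4.63 ± 0.32 (SE, adjusted p = 0.00115, limma), the next in rank after M21. I09 read 14441, 13839 and 15091 in nitrate-treated roots, against 1106, 486 and 995 in control roots. It rose by 4.15 ± 0.33 on the log2 scale (SE, adjusted p = 0.00182, limma), or 17.8-fold.

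B06 was the dimmest of the members, with 120, 101 and 126 in nitrate-treated roots, against 17.7, 10.9 and 21.4 in control roots. It was well above background on 2 of the 3 control root arrays and on all other arrays, so it entered the root fit only through nitrate-treated roots, where it is high. Its log2 change was 2.85 ± 0.29 (SE, adjusted p = 0.00528, limma), or 7.2-fold, with the reading on control root array 2 (10.9) not above background. With normexp background correction and an offset of 50, which is above its control root signal, the log2 change was 1.34. The adjusted p was then 0.00493.

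Cytosolic GSbeta1 read 336214, 348763 and 337375 in nitrate-treated roots, against 128607, 152431 and 147023 in control roots. All nitrate arrays lay above all control arrays, with a CV of 2.03% and 8.75%. The log2 change was 1.26 ± 0.19 (SE, adjusted p = 0.0203, limma), or 2.39-fold (95% confidence interval 1.77 to 3.25). The median spot signal of this probeset was 53.8% to 67% of the scanner's saturation value in nitrate-treated roots and 20.3% to 23.3% in control roots, and no spot was saturated. The call was lost without control root array 3 or without any 1 of the nitrate-treated arrays, with adjusted p-values of 0.0928 to 0.143, while the log2 change stayed between 1.19 and 1.31 over all single omissions.

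All 5 probesets thus rose in roots past both rules, an adjusted p under 0.05 and a change above 2-fold, and 2.56% of the 33957 probes were called in roots at that adjusted p in either direction (0.851% higher with the fold rule added). This count cannot be read against that share, because the members are known from a list made on the same arrays. The median log2 change of the members was 4.15, against 0.10 over all probes tested. Within the slide that held all nitrate-treated root arrays, the comparison rests on control root array 1 alone. There the log2 change was 4.19 for M21, 4.14 for D20, 3.71 for I09, 2.71 for B06 and 1.41 for GSbeta1. With the slide as a fixed block the adjusted p was 0.0138, 0.02 and 0.0306 for M21, D20 and I09, and 0.0768 and 0.108 for B06 and GSbeta1, which were then not called. Control root array 2, the dimmest array, carried 56.3% to 65.4% of its group's mean for the plastid probesets and 107% for GSbeta1. Without it the log2 changes were 4.35, 4.30, 3.78 and 2.57 for the plastid probesets in the same order and 1.31 for GSbeta1, and all 5 were still called.

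**Figure D2:**
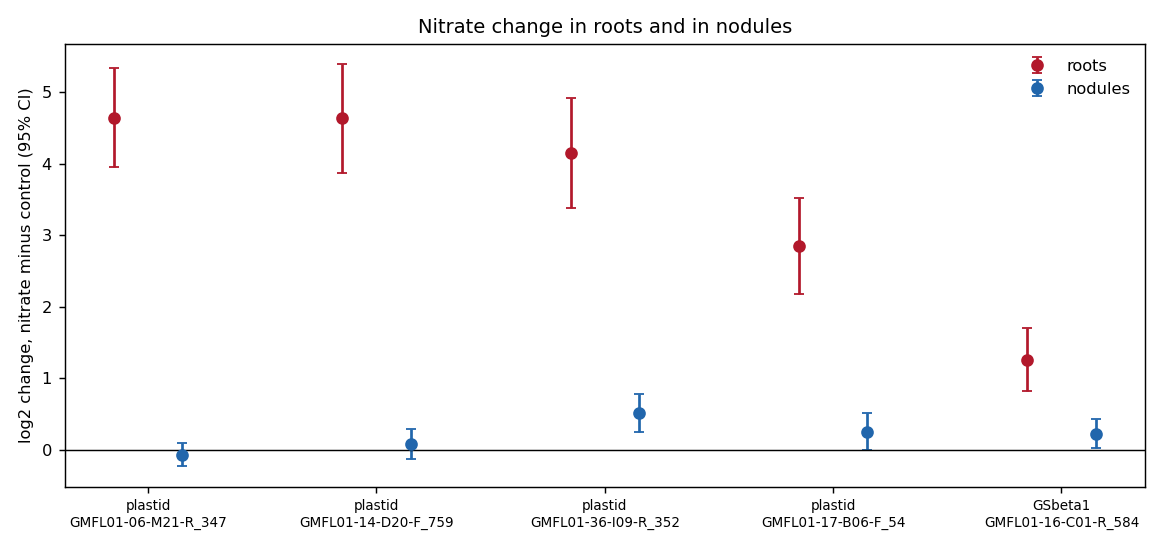
Log2 change under nitrate (nitrate minus control, with 95% confidence intervals from limma, 3 arrays against 3) of each probeset, in roots on the left and in nodules on the right of each pair. The root values run between 1.26 for GSbeta1 and 4.64 for M21, and the nodule values between -0.07 for M21 and 0.52 for I09.

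The nodule arrays give the comparison that the choice of probesets did not use. M21 read 17488, 18990 and 18961 in nitrate-treated nodules, against 18637, 19492 and 19910 in control nodules. The groups overlapped, and the log2 change of -0.07 had a 95% confidence interval of -0.23 to 0.10 (adjusted p = 0.444, limma). D20 read 6591, 7725 and 7589 in nitrate-treated nodules, against 6559, 6965 and 7163 in control nodules. Its log2 change was 0.08, with an interval of -0.13 to 0.29 (adjusted p = 0.469, limma). As folds, the intervals were 0.853 to 1.07 for M21 and 0.916 to 1.22 for D20. I09 differed from these. It read 8830, 9840 and 10890 in nitrate-treated nodules, against 6117, 7352 and 7137 in control nodules, without overlap. It rose by 0.52 ± 0.11 on the log2 scale (SE, adjusted p = 0.0128, limma), or 1.43-fold with an interval of 1.19 to 1.73.

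B06 had 60.5, 60.6 and 62.6 in nitrate-treated nodules, against 43.8, 55 and 55.8 in control nodules. The groups did not overlap, but the log2 change of 0.26 ± 0.11 (SE) did not pass the test (adjusted p = 0.092, limma). GSbeta1 read 298655, 262013 and 281797 in nitrate-treated nodules, against 225945, 235314 and 258216 in control nodules. Here too the groups stood apart, and the log2 change of 0.23 ± 0.08 (SE, interval 0.02 to 0.43) missed the threshold (adjusted p = 0.0667, limma). It passed with normexp background correction (adjusted p = 0.0416). In all, 1 of 5 probesets was called in nodules, where 45.6% of 35253 probes were called in either direction and 16.7% were called higher. None was called above 2-fold, against 3.19% of the probes higher and 5.44% lower by that rule. The 1 member called was a rise, and 1 of 5 is too small a count to be set above or below either share. Groups did not overlap for 3 members, all higher under nitrate, against 24% of the probes in that direction. Within the slide of the control nodule arrays, which leaves nitrate-treated nodule array 3 alone, the log2 change was -0.03 for M21, 0.14 for D20, 0.67 for I09, 0.29 for B06 and 0.23 for GSbeta1. The call of I09 was lost in the fit of all 12 arrays, which shares one estimate of the spread with the root arrays (adjusted p = 0.236).

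The nitrate response of each probeset was larger in roots than in nodules. The difference between the organs, taken as the root change minus the nodule change in one fit of 12 arrays, was 4.71 ± 0.31 on the log2 scale for M21, 4.55 ± 0.35 for D20, 3.63 ± 0.37 for I09, 2.59 ± 0.32 for B06 and 1.03 ± 0.17 for GSbeta1 (SE). The adjusted p-values were 4.44e-05, 0.000116, 0.00053, 0.00135 and 0.0045 in the same order (limma). For B06 the difference was 1.15 with normexp correction. All 5 were called, among 36432 probes of which 19.8% were called in either direction and 11.8% higher in roots. The root arrays in this test are those of the list, so the direction is not independent evidence. The median difference was 3.63 over the members and 0.15 over all probes, and with 75th percentile scaling the median over all probes was 0.02. Measured from these medians, M21 stood at 4.56 and GSbeta1 at 0.88 under both scalings. The scalings differ by a constant per array, so these values are equal by construction. Measured likewise with quantile normalization and with normexp correction, M21 stood at 4.56 and 4.45, and GSbeta1 at 1.24 and 1.09.

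Without nitrate, roots carried less signal than nodules for every probeset. M21 averaged 800.9 ± 272 in control roots and 19346 ± 649 in control nodules (SD, n = 3 each), which is a log2 difference of -4.66 (roots minus nodules, adjusted p = 2.14e-05, limma). D20 averaged 357 ± 134 in control roots and 6896 ± 308 in control nodules, a difference of -4.35 (adjusted p = 4.15e-05, limma). I09 averaged 862 ± 331 in control roots and 6868 ± 660 in control nodules, a smaller difference of -3.08 (adjusted p = 0.000251, limma). For B06 the means were 16.7 ± 5.34 in control roots and 51.5 ± 6.72 in control nodules, a difference of -1.67 (adjusted p = 0.00189, limma), which was -0.44 with normexp correction, and it entered this fit only through control nodules. GSbeta1 averaged 142687 ± 12490 in control roots and 239825 ± 16602 in control nodules. Its difference of -0.75 ± 0.16 (SE, adjusted p = 0.00519, limma) was the only one under 2-fold.

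All 5 were called lower in control roots, where 65.8% of 36149 probes were called in either direction and 39% were called lower. With the fold rule added, 4 members were called, against 29.9% of the probes. The control root arrays belong to the list on which the probesets were found, while the control nodule arrays do not. The median log2 difference was -3.08 over the members and -0.29 over all probes tested (-0.12 with 75th percentile scaling). Relative to that median GSbeta1 stood at -0.46 under either scaling, which is equal by construction. It stood at -0.69 with quantile normalization and -0.68 with normexp correction. Control roots were on slides 1 and 2 and control nodules on slide 3, so no slide held both groups. With the slide as a random block all 5 were still called, with adjusted p-values of 0.000337 to 0.0376.

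**Figure D3:**
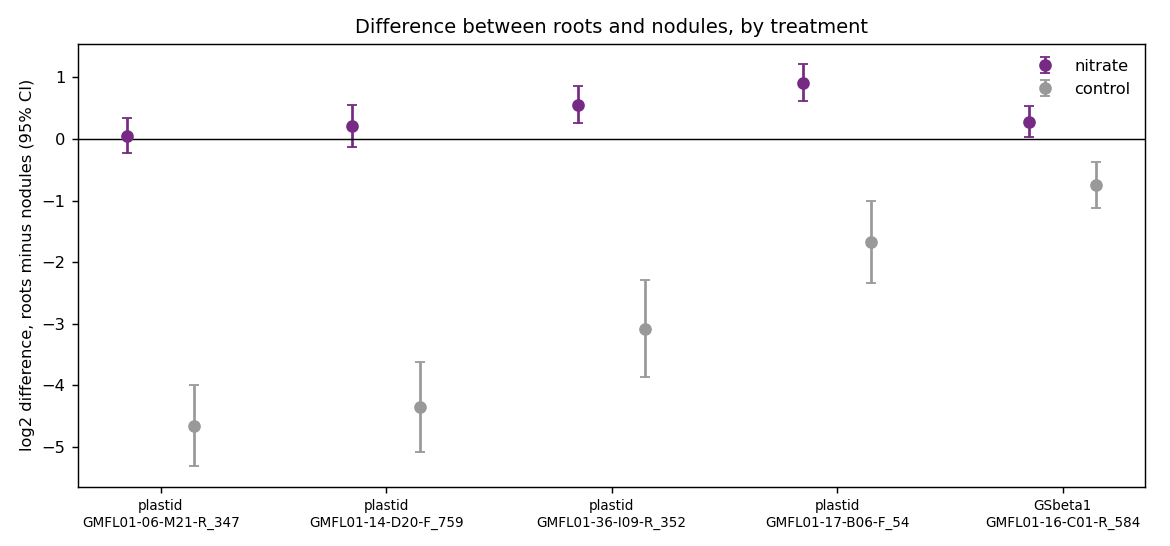
Log2 difference between organs (roots minus nodules, with 95% confidence intervals from limma, 3 arrays against 3) of each probeset, under nitrate on the left and in control plants on the right of each pair. The control differences run between -4.66 and -0.75 and lie below 0, and those under nitrate run between 0.05 and 0.92.

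Under nitrate the organs were close. M21 averaged 19234 ± 1744 in nitrate-treated roots and 18480 ± 859 in nitrate-treated nodules (SD, n = 3 each), with a log2 difference of 0.05 and an interval of -0.23 to 0.34 (adjusted p = 0.689, limma). D20 averaged 8453 ± 1058 in roots and 7302 ± 619 in nodules, with a difference of 0.21 (interval -0.13 to 0.54, adjusted p = 0.221, limma). Both pairs of groups overlapped. I09 was 1.47-fold higher in roots, at 14457 ± 626 against 9853 ± 1030 in nodules (log2 difference 0.56 ± 0.12 SE, adjusted p = 0.00622, limma). B06 was 1.89-fold higher, at 116 ± 13 in roots and 61.3 ± 1.19 in nodules (log2 difference 0.92 ± 0.12 SE, adjusted p = 0.000738, limma). GSbeta1 averaged 340784 ± 6935 in roots and 280822 ± 18341 in nodules, without overlap, and its log2 difference of 0.28 ± 0.11 (SE) lay at the edge of the threshold (adjusted p = 0.0509, limma).

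Of the 5 probesets, 2 were thus called, both higher in roots, against 71.9% of 35657 probes in either direction and 33.9% higher in roots. All nitrate-treated roots were on slide 1, and no nitrate-treated nodule array was. A fit of all 12 arrays with the slide as a fixed block, in which the comparison runs through the control arrays, gave log2 differences of -0.61 for M21, -0.50 for D20, -0.04 for I09, 0.72 for B06 and 0.50 for GSbeta1, none of them called. Whether roots under nitrate lie above nodules for I09 and B06 thus depends on how the slide is treated. In the same fit the control differences ran between -4.83 for M21 and -0.67 for GSbeta1, all called.

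The separation and range of the groups differed between the probesets, while all but M21 shared one order of the group means. For M21, nitrate-treated roots, nitrate-treated nodules and control nodules overlapped, at 99.4%, 95.5% and 100% of the control nodule mean, with control roots apart at 4.14%. For D20 the same 3 groups stood at 123%, 106% and 100%, with overlap between neighbours, and control roots at 5.18%. For I09 all 4 groups were separate, at 210% in nitrate-treated roots, 143% in nitrate-treated nodules, 100% in control nodules and 12.6% in control roots. B06 had the same order without overlap, at 225%, 119%, 100% and 32.4%. GSbeta1 followed it too, over a narrower range of 142%, 117%, 100% and 59.5%. Its highest group mean (of log2 values) was 2.39 times its lowest, against 25.2 times for M21. Separation upward under nitrate in nodules was also seen for 24% of all probes, and the share for the full order was not counted. No slide held both nitrate groups. With the slide as a fixed block the step between them was -0.04 for I09, and no member was called there.

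**Figure D4:**
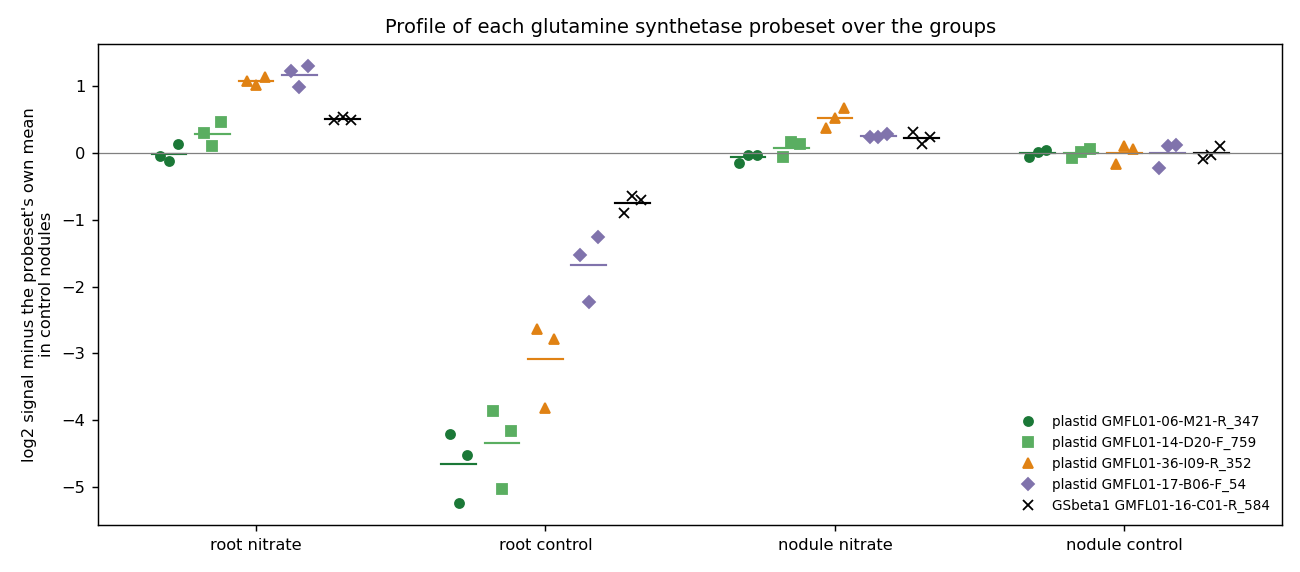
Log2 signal of each probeset on each array minus the probeset's own mean in control nodules, by group, with 1 point per array and a line at the group mean. In control roots the members fan out, with M21 at -4.66, D20 at -4.35, I09 at -3.08, B06 at -1.67 and GSbeta1 at -0.75, and in nitrate-treated roots all means lie between -0.01 and 1.17.

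The 4 plastid probesets carry one description but did not follow one pattern. M21 and D20 moved together in roots, where the log2 ratio between them changed by 0.01 under nitrate with overlapping arrays. In nodules the log2 ratio of M21 to D20 changed by -0.15 under nitrate, without overlap. The ratio of M21 to I09 changed by 0.49 under nitrate in roots and by -0.59 in nodules, and that of D20 to I09 by 0.48 in roots and -0.44 in nodules, each without overlap between the 3 nitrate and 3 control arrays. I09 thus rose less than the other pair in roots and more in nodules. The largest ratio changes in roots were those against the dim B06, at 1.80 for M21, 1.79 for D20 and 1.31 for I09, also without overlap. Their size depends on the background correction. With normexp the root log2 change was 1.34 for B06, against 4.41 for M21, 4.37 for D20 and 4.05 for I09. Between the organs the log2 ratio of M21 to I09 differed by -0.50 under nitrate and by -1.58 without it (roots minus nodules). These are descriptions of ratios within arrays, in which the scaling of the array cancels but the background correction does not. Control root array 2, nitrate-treated root array 2, nitrate-treated nodule array 1 and control nodule array 1 were each the lowest of their group for 4 of 4 plastid probesets. GSbeta1 was the highest of its group on the first 3 of these arrays, and the lowest on control nodule array 1.

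The change of GSbeta1 was set against that of each plastid probeset by the log2 difference between them on each array. In roots, the log2 change of GSbeta1 minus that of the plastid probeset was -3.38 for M21, -3.38 for D20, -2.89 for I09 and -1.59 for B06, and the nitrate arrays were separate from the control arrays in each case. The exact permutation test (two-sided) gave p = 0.1 for each, the smallest value that 3 against 3 arrays allow, and 0.16 after Benjamini-Hochberg adjustment over the 8 comparisons made. In nodules it was 0.29 for M21, without overlap (exact p = 0.1), 0.15 for D20 (exact p = 0.3), -0.29 for I09 (exact p = 0.2) and -0.03 for B06 (exact p = 0.8). This test cannot reach 0.05 with 3 against 3 arrays, so limma was also fitted to the log2 difference between GSbeta1 and each other probe, a test chosen after seeing the data. In roots it called 4 of 4 plastid probesets (adjusted p = 0.00102, 0.00102, 0.00119 and 0.00448 for M21, D20, I09 and B06), as it did 69.7% of 33956 probes. With normexp correction, however, B06 and GSbeta1 had nearly equal root changes, at 1.34 and 1.35. In nodules limma called 0 of 4 (adjusted p = 0.0939 to 0.866, and none at an unadjusted p under 0.05), against 46.8% of 35252 probes, and the widest interval was that of I09, at -0.62 to 0.04. Levels of different probesets were not set against each other, because the brightness of a probe also depends on its sequence.

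The neighbouring steps of the pathway were followed with 20 probesets, which the study's lists describe as nitrate reductase, nitrite reductase, NADH glutamate synthase, asparagine synthetase or aspartate aminotransferase. These lists hold only probesets changed more than 2-fold on these arrays, so the counts are a description. In roots, 18 of 20 rose past both rules and none fell, where 0.851% of all probes rose past both. The median log2 change was 3.30, against 0.10 over all probes. Nitrite reductase, which makes ammonium in plastids, had the largest changes, of 7.79 to 10.41 over 3 probesets. Nitrate reductase, the step before it, rose by 6.16 to 6.83 over 3 probesets. The 4 probesets of NADH glutamate synthase, which turns glutamine back into glutamate, rose by 2.04 to 4.26, while the plastid glutamine synthetase probesets rose by 2.85 to 4.64, with M21 and D20 above the highest glutamate synthase value. Of the 9 probesets of asparagine synthetase, which passes the amide of glutamine on to asparagine, 8 rose, and the ninth was at -0.07. The aspartate aminotransferase probeset was at 1.17 and did not pass the test (adjusted p = 0.0588, limma).

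In nodules the values differed between the families. The lists behind the 20 probesets include those made on the nodule arrays, whereas the glutamine synthetase probesets came from the root list alone. These sets were thus not chosen alike, and the counts, ranks and median below are a description only. Among all probes of the nodule fit, 45.6% were called in either direction and 16.7% were called higher. Past both rules the shares were 3.19% higher and 5.44% lower. Of the 9 asparagine synthetase probesets 8 rose past both rules, by 1.58 to 2.18 on the log2 scale, and 1 fell by 1.61. The 4 glutamate synthase probesets were called higher, at 0.60 to 1.15, and 2 of them passed 2-fold. All 3 nitrate reductase probesets were called at 0.36 to 0.42, and 1 of 3 nitrite reductase probesets at 0.31, with the other two at 0.10 and 0.22. The aspartate aminotransferase probeset was called lower, at -0.56. The glutamine synthetase values in nodules, -0.07 to 0.52, lay below those of glutamate synthase and of the asparagine synthetase probesets that rose. They ran wider than the reductases, with M21 and D20 below the lowest reductase value and I09 above the highest. Over the 20 probesets the median change in nodules was 1.03, against -0.08 over all probes.

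**Figure D5:**
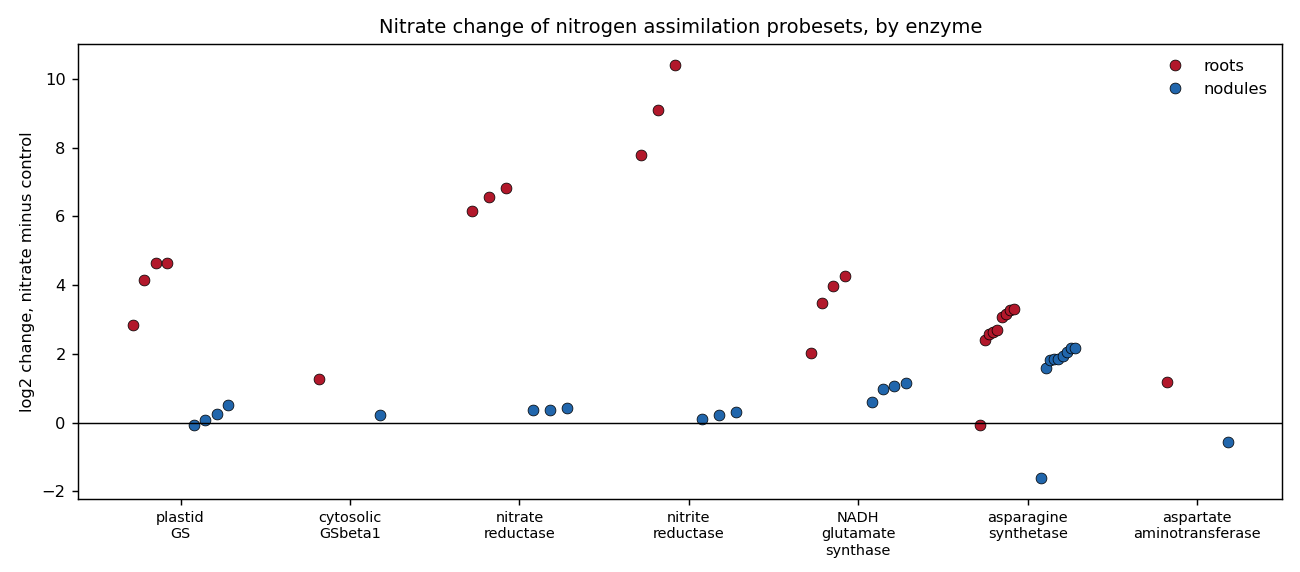
Log2 change under nitrate (nitrate minus control) of the 5 glutamine synthetase probesets and of the 20 other nitrogen assimilation probesets, grouped by enzyme, in roots on the left and in nodules on the right of each group, with 1 point per probeset. In roots nitrite reductase reaches 10.41 and plastid glutamine synthetase 4.64, while in nodules the highest values are those of asparagine synthetase, up to 2.18.

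Among 33267 probes read well above background on at least 9 arrays, the ones most like the mean profile of the plastid probesets over the 12 arrays were sought by Pearson's r. The closest was CO981749.1_635, whose description names only a Medicago truncatula clone (r = 0.998), with log2 changes of 5.98 in roots and 0.29 in nodules. It was followed by a myb family transcription factor (BQ296965.1_2, r = 0.989), an integral membrane HPP family protein (CD409961.1_576, r = 0.987), a soybean cDNA clone without a named product (CO984232.1_430, r = 0.986) and a NADH glutamate synthase precursor (CO982658.1_507, r = 0.985). In Arabidopsis, HPP family proteins carry nitrite into plastids. For GSbeta1 the 5 closest probes included 3 described as malate dehydrogenase, the enzyme that interconverts malate and oxaloacetate, namely GMFL01-33-M09-R_411 (r = 0.990), BG156137.1_529 (r = 0.986) and BI968929.1_166 (r = 0.977), whose log2 changes were 1.93 to 2.18 in roots and 0.15 to 0.31 in nodules. The others were GMFL01-05-C15-R_440, a soybean cDNA clone without a named product (r = 0.973), and CV128281.1_592, named only by a Lotus clone (r = 0.973). Their log2 changes were 2.69 and 7.36 in roots and 0.78 and 0.87 in nodules, against 1.26 and 0.23 for GSbeta1. Pearson's r does not measure the size of a change. The 12 arrays fall into 4 groups and share their slides, so these coefficients describe likeness of group patterns only.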

How the data were processed

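RNA of 12 samples was hybridized to 1-colour Agilent arrays. The deposited intensity values are background-adjusted spot signals from Feature Extraction, without scaling between arrays (version 10.5.1.1 per the file headers, 9.5.1 in the submitters' processing notes). Here each array was scaled to a mean of 2500, the target of the study's methods, and taken to log2. The 106 spots marked as outliers, none of a member, were left out. Fits used the probes that every array of 1 or more of their groups read as well above background, which held for all 5 members. Changes were fitted with limma 3.58.1 in R 4.3.3, on 6 arrays per contrast (12 for the organ difference), with Benjamini-Hochberg adjustment over all probes of the fit. On simulated data the fits, also those of differences from GSbeta1, were tested for recovery of known changes. Exact tests used scipy 1.17.1 in Python 3.11.15.

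Same-numbered root arrays deviated together from their group means (r = 0.298, 0.323 and 0.546 for numbers 1 to 3), and nodule arrays less so (0.117, 0.00675 and 0.0992). The main fits in both organs were unpaired, and a block by number was run as an alternative only. Nitrate and control samples came from different plants, so pairing them by number is not part of the stated design. Roots and nodules of a treatment shared plants, but the main fits between organs and of the interaction were unpaired too. Same-numbered root and nodule arrays had r of -0.00359, -0.0815 and 0.109 in control plants, and of -0.052, -0.0634 and -0.178 under nitrate. In the interaction, the block by number was set within each organ and did not link the organs. Named probes were the members, the pathway probes, and the 5 with the profile most like each of the 2 member types. Members and lists were chosen with earlier results of these data known. Groups and numbers come from the sample titles. The first control root sample has number 1 in its title, used here, and 2 in another label, which bears on the block by number in roots. Each replicate is a separate pool of 3 plants. The authors' fold changes and p-values in the supplementary lists were not used. Alternatives were other scalings, background corrections and filters, blocks by number or slide, the methods' t-test, and each array left out. The t-test was run here on log2 values of the filtered probes, whereas the study's methods name calibrated signals.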

Additional observations from a re-analysis of the deposited data

Results flagged for a closer look

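For each of the 5 probesets the nitrate effect differed between roots and nodules in the interaction test (limma, 12 arrays, adjusted p-values of 4.44e-05 to 0.0045). The difference, roots minus nodules on the log2 scale, was 4.71 for GMFL01-06-M21-R_347, 4.55 for GMFL01-14-D20-F_759, 3.63 for GMFL01-36-I09-R_352, 2.59 for GMFL01-17-B06-F_54 (1.15 with normexp correction) and 1.03 for the GSbeta1 probeset. The root arrays are also those on which the probesets were listed by the study. No test for single arrays that stand apart was made, since each group holds 3 arrays.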

How the results depend on the processing

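Of the 5 members called in roots, 3 were called with the slide as a fixed block, with or without the 2-fold rule. With the methods' t-test, run here on log2 values and with Benjamini-Hochberg adjustment, 2 were called, also with or without that rule. When single arrays were left out, 4 to 5 were called. In nodules, against 1 member called, 2 were called with normexp correction of the median signal (chosen after seeing the data) or with the methods' t-test at an unadjusted p, and 0 in the fit of all 12 arrays. Between nitrate-treated roots and nodules, against 2 called, 1 was called in the fit of all 12 arrays and 0 with the slide as a fixed block in it (chosen after seeing the data). With 75th percentile scaling, quantile normalization, normexp correction, the slide as a random block or without nitrate-treated root array 1, 3 were called, as GSbeta1 then passed (adjusted p = 0.0117 to 0.0497). Above 2-fold, the number was 0 to 1 over single omissions, the 1 being B06 without nitrate-treated root array 2. In that contrast the sign turned for M21 with normexp correction (-0.16), with the fixed slide block (-0.61) and without nitrate-treated root array 3 (-0.016, with values of -0.016 to 0.111 over single omissions), and for D20 (-0.50) and I09 (-0.038) with the fixed slide block. The difference between GSbeta1 and B06 in nodules ranged between -0.095 and 0.041 over single omissions, with both signs, and was -0.30 with quantile normalization (exact p = 0.1). With limma on the differences between GSbeta1 and the plastid probesets in roots (-3.38, -3.38, -2.89 and -1.59), all 4 passed the threshold that the exact test cannot reach. Causes were not tested. The numbers of members called in control organs and in the interaction stayed at 5 under every alternative run.

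With the replicate number as a block, all member calls and non-calls were kept, but 4553 probes were called in roots, against 870 without it. The root changes in that limma fit had adjusted p-values of 0.000266 for M21 and 0.012 for GSbeta1. Over all probes, quantile normalization called 2694 in roots, and 47% of these were higher, against 33.3% in the main setting; in nodules 48.1% were higher, against 36.6%. The fixed slide block called 128 in roots and the fit of all 12 arrays 6531. In nodules that fit called 4130 probes, against 16083. For the interaction the fixed slide block called 2657, against 7221. Normexp correction on the mean spot signal was not run, because a mean signal column was not used here. The dim signal of B06 and the 3 arrays per group limit the precision.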
